A study of Mus musculus with 8 samples.

Results

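Loss of Max, the shared partner of the Myc network, was compared with loss of Myc itself in activated mouse B cells. The comparison sets the 2 libraries titled as Max knock-outs (Max_KO) against the 2 titled as Myc knock-outs (Myc_KO), so 4 of the 8 RNA-seq libraries of the series enter it. The other 4 are 2 heterozygous controls and 2 libraries titled as lacking both genes (double_KO). Of the 15681 genes in the deposited table, the 12489 with a log2 value of 0 or more in at least 2 of the 8 columns were tested. Every library came from sorted mature B lymphocytes of the spleen, taken at an age of 8 to 10 weeks. All were activated in culture with LPS (lipopolysaccharide, a Toll-like receptor ligand, 20 µg/ml) and the cytokine IL-4 (20 ng/ml), and were harvested after 72 h. No library was left without this stimulus, and the controls were heterozygous rather than wild type. The labels name neither the Cre driver nor the exons removed, and they leave unstated whether replicate libraries stem from different mice. All p-values therefore measure only the spread between these libraries, which may be technical.

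Max is a small basic helix-loop-helix leucine zipper protein that Myc needs to bind DNA. Max also pairs with Mnt, Mga and the Mxd proteins (Mxd1, Mxi1, Mxd3 and Mxd4), which repress, and all of these pairs can bind the E-box CACGTG. Loss of Myc removes the activating arm, whereas loss of Max removes the partner of every arm. Mga and Max are also subunits of PRC1.6, a Polycomb complex known for silencing germline genes, and Mlx is a second partner that can still serve Mnt, Mxd1 and Mxd4. In B cells, Myc is known for driving growth, glycolysis and division after activation.

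The labels disagree on 2 libraries. The library titled and headed as Myc_KO replicate 2 is called a double knock-out in its description and genotype fields, and the one titled double_KO replicate 1 is called a Myc knock-out there. Groups were taken from the titles, which match the column names. Levels are given in RPM, the estimated reads of a gene scaled to its library's effective size in M reads. Max (chromosome 12, 76937269 to 76962201, GRCm38) stood at 70.4 and 59.8 RPM in Myc_KO replicates 1 and 2, at 55 and 54.5 RPM in the controls, and at 16.4 and 15.5 RPM in Max_KO. The double_KO libraries held 28.6 and 31.2 RPM of Max. The library whose labels conflict in Myc_KO thus lay with the controls in its Max level, and the conflicting library in double_KO lay with its partner. Myc (chromosome 15, 61985391 to 61990374) was at 48.3 and 55.7 RPM in Myc_KO, 38.7 and 55.3 RPM in double_KO, 111 and 116 RPM in the controls and 192 and 176 RPM in Max_KO. Neither targeted transcript was at 0 in its own knock-out, and reads from exons outside a deletion cannot be told from reads of an intact gene.

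The libraries held 14.88 to 17.91 M estimated reads. The share of reads from mitochondrial DNA was 4.93% and 5.69% in the controls, and the 6 knock-out libraries ranged from 2.21% to 2.96%. All 10 B cell markers examined were in the table, and their summed level was 6487 and 7662 RPM in Myc_KO, 6649 and 7085 RPM in Max_KO, and 5068 and 4989 RPM in the controls. In such bulk samples, fewer cells of a type and less RNA per cell cannot be told apart.

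Promoters were searched for the E-box that Max-containing pairs bind, because it is the sequence the compared proteins share. The 250 bases before each RefSeq start site (GRCm38.p6) were read for CACGTG, which is its own reverse complement. Among genes higher in Max_KO than in Myc_KO, 55 of 319 promoters (17.2%) held the motif, against 1010 of 11848 (8.52%) for all genes tested and 9 of 165 (5.45%) for genes lower in Max_KO. Where the gene was also at least 2-fold higher, 31 of 145 promoters (21.4%) held it. The share for GCGGGA, a motif read for comparison on both strands, was 31.3% in the higher genes, 27.9% in the lower genes and 29.8% overall. For CAGCTG, another E-box and its own reverse complement, the shares were 10.7%, 17% and 11.6%. GC content was 61.1%, 57.6% and 59.7% in the same order. A match describes letters in a window and is not a site of binding. The promoters shown were chosen because they hold the motif. They belong to genes whose values follow: 2 meiotic genes, a receptor phosphatase, the Max partner Mnt and the mitophagy receptor Bnip3. Each is printed 5′ to 3′ on the gene's strand and ends at the base before the start site, and capitals mark CACGTG.
Stag3, chr5:138280259-138280508, plus strand: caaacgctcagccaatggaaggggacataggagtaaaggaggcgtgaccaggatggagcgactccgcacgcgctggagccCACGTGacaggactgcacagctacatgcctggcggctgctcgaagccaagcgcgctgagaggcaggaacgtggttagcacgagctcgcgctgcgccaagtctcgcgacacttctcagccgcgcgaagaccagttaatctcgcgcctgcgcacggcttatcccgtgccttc
Syce2, chr8:84872008-84872257, plus strand: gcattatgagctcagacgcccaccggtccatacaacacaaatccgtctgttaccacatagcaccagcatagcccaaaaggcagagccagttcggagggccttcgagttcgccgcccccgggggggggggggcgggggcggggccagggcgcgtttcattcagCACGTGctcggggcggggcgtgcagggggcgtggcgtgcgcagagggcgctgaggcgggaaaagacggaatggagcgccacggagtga
Ptprs, chr17:56476481-56476730, minus strand: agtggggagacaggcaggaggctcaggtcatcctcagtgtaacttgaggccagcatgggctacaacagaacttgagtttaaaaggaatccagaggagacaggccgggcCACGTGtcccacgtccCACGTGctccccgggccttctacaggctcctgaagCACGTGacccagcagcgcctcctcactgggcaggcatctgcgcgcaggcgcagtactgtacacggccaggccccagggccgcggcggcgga
Mnt, chr11:74830674-74830923, plus strand: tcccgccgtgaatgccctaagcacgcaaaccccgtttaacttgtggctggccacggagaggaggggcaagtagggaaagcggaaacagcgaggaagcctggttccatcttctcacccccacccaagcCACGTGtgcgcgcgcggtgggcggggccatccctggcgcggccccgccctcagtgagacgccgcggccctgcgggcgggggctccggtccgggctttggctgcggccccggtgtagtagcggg
Bnip3, chr7:138909507-138909756, minus strand: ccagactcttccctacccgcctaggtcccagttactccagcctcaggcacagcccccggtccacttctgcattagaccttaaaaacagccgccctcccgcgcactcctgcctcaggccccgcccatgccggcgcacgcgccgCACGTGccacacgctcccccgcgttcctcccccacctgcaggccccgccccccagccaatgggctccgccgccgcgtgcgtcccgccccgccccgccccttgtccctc
Counted back from the start site, the first base of the E-box lay at -170 in Stag3, -88 in Syce2, -123 in Mnt and -108 in Bnip3. The Ptprs window held 3 copies, at -142, -126 and -91. Syce2 and Ptprs each have a further start site whose window held no copy, and none was found in the windows of Zcwpw1, Slc16a3, Fhad1 or Tnfrsf25. Of the genes tested, 9331 of 12489 had a promoter entry.

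In all, 514 of 12489 genes (4.12%) passed limma's test at an adjusted p under 0.05 between Max_KO and Myc_KO. Of these, 304 (2.43%) were higher and 210 (1.68%) lower in Max_KO, and 235 differed at least 2-fold. At an unadjusted p under 0.05, 2417 genes passed. For scale, 4954 genes (39.7%) passed between Max_KO and control and 5671 (45.4%) between Myc_KO and control, comparisons that share their control libraries. Higher calls were 2782 of these in Max_KO and 2994 in Myc_KO. With libraries scaled to the same total, the median log2 difference of all genes moved to 0.12 and 0.15, and the calls split into 3452 higher and 1723 lower in Max_KO and 3845 higher and 1945 lower in Myc_KO. Non-overlap of 2 libraries with 2 others is common here: 5766 genes (46.2%) showed it, called or not. All 514 called genes showed it, so leaving out a library or changing the variance model could not reverse their direction. A direction kept in those settings is therefore not a check of the call. With the groups named in the description, only 13 genes passed, 10 of them among the 514, and without the 2 libraries whose labels conflict, 370 passed. Leaving out Myc_KO replicate 1 left 97 calls, Max_KO replicate 1 left 109, either control left 161, and Myc_KO replicate 2 left 336. Of the 90 called genes checked singly, all 90 kept their direction in each alternative setting in which they were tested (20, or 19 for Gm15133), and 21 stayed called whichever of the 8 libraries was left out. These 21 were Myc, Max, Stag3, Rnf17, Syce2, Ptprs, Camk2a, Fhad1, Aldoc, Tpi1, Pdk1, Derl3, Ung, Apex1 and Rrp12, with Trim12a, Trim30d, Trim5, Jchain, Icosl and Ighg3. Without the 2 conflicting libraries, 46 of the 90 stayed called, among them all 21 (adjusted p by limma up to 0.0371). Under the description's groups, 8 of the 90 stayed called, namely Myc, Trim12a, Trim30d, Trim5, Gvin1, Trim34a, Jchain and Sdc1.

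**Figure D1:**
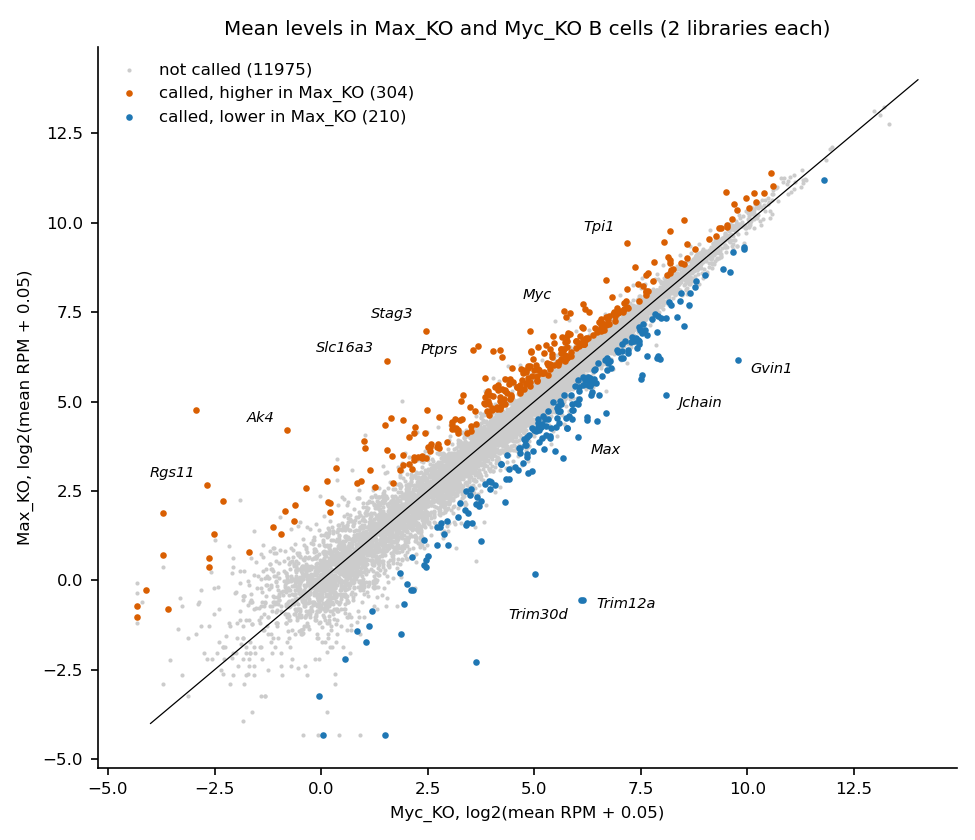
Each point is 1 of 12489 genes, placed by its mean level in Myc_KO (x axis) and Max_KO (y axis), both as log2(mean RPM + 0.05), with the line of equal levels. The 304 genes higher in Max_KO are orange, the 210 lower are blue, and Trim12a and Trim30d lie far under the line.

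The network's own genes differed in both directions, with 4 of 11 tested members higher in Max_KO, 1 lower and 6 not passing. Myc transcript was 3.54-fold higher in Max_KO than in Myc_KO (log2 difference 1.82, SE 0.16, adjusted p by limma 0.00196) and also above control in Max_KO (log2 difference 0.69, adjusted p 0.0104). Max was 4.07-fold lower in Max_KO (log2 difference -2.03, SE 0.117, adjusted p by limma 0.000379). These 2 differences are those of the deleted genes.

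Mnt, a repressor that pairs with Max, was above control in Max_KO and did not pass against control in Myc_KO. It was at 22.3 and 28.5 RPM in the controls, 22.7 and 38.1 RPM in Myc_KO, 79.3 and 90.9 RPM in Max_KO and 67.6 and 78.2 RPM in double_KO. Both Max_KO libraries and both double_KO libraries lay above every library of the other groups. Mnt was 2.88-fold higher in Max_KO than in Myc_KO (log2 difference 1.53, SE 0.232, adjusted p by limma 0.0165, and 0.0568 without Max_KO replicate 1), while its log2 difference from control was 1.75 in Max_KO and 0.22 in Myc_KO (adjusted p 0.000915 and 0.466). Mga, the scaffold that brings Max into PRC1.6, was at 178 and 210 RPM in Max_KO, 141 and 136 RPM in Myc_KO and 64.2 and 70.5 RPM in the controls. Both knock-outs were above control, and the log2 difference of 0.48 between them (adjusted p by limma 0.0426) was lost on leaving out any of the 8 libraries (0.0585 to 0.151). Mxi1, a Mxd repressor, stood at 25 and 15.4 RPM in Max_KO, 9.4 and 7.31 RPM in Myc_KO and 36.2 and 43.1 RPM in the controls. Both knock-outs were below control, Myc_KO by more, and the difference of 1.24 between them (adjusted p by limma 0.0307) was lost without either control, either Myc_KO library or Max_KO replicate 1 (0.0736 to 0.135).

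The other repressors, Mycl and the Mlx arm did not pass. Mxd4 had a log2 difference of 0.58 (adjusted p by limma 0.0579), Mxd1 of -0.54 (0.185) and Mxd3 of 0.29 (0.318). Mycl, a gene of the Myc family, had a difference of 1.19 (adjusted p by limma 0.191). Mlx, the alternative partner, was at 38.3 and 34.8 RPM in Max_KO and 42.4 and 35.4 RPM in Myc_KO, and Mlxip, a glucose-responsive partner of Mlx, differed by -0.17 (adjusted p by limma 0.597). Of 6 tested targets of the Mlx arm, G6pc3, a glucose-6-phosphatase, was called higher in Max_KO (log2 difference 0.68, adjusted p 0.044); its call was lost without either control, Myc_KO replicate 1, either Max_KO library or either double_KO library (0.0642 to 0.205).

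**Figure D2:**
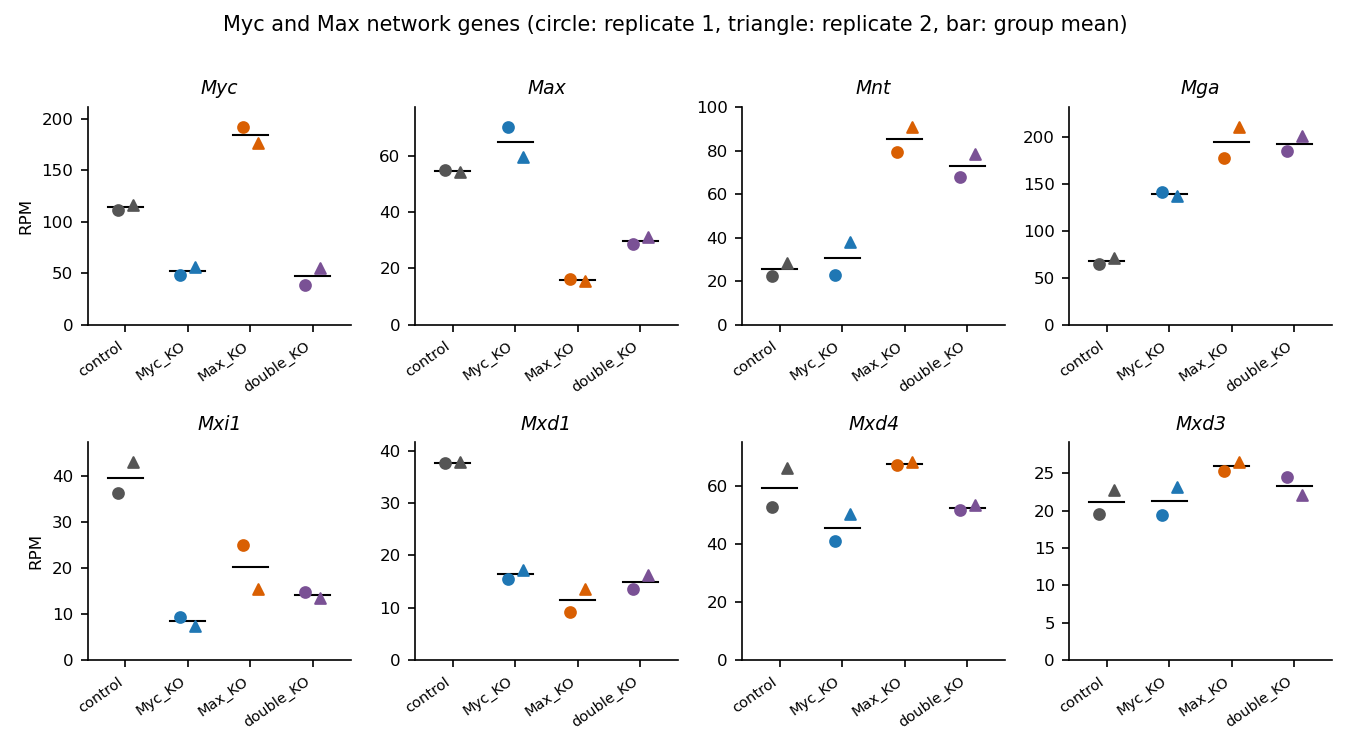
Levels of 8 network genes in RPM (y axis, from 0) in each library, grouped by genotype (x axis), with a bar at the group mean. Max is lowest in Max_KO at 16.4 and 15.5 RPM, Mnt is highest there at 79.3 and 90.9 RPM, and Mlx is not drawn.

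Of 20 germline genes tested, 4 were called higher in Max_KO than in Myc_KO and none lower, where 2.43% and 1.68% of all genes were. Against control, 6 were called higher and 3 lower in Max_KO, with a median log2 difference of -0.085. In all genes, 22.3% were called higher and 17.4% lower there. For Myc_KO, 2 were called higher and 3 lower, with a median of -0.16, so the list as a whole did not rise in either knock-out. Stag3, the cohesin subunit of meiotic chromosomes (chromosome 5, 138280240 to 138312393), was at 113 and 140 RPM in Max_KO and at 4.83 and 6.04 RPM in Myc_KO. The controls held 22.2 and 19.4 RPM and double_KO 73.9 and 93.4 RPM. No libraries of different groups overlapped, and the order from lowest to highest was Myc_KO, control, double_KO and Max_KO. The fitted difference between Max_KO and Myc_KO was 23.2-fold (log2 4.54, SE 0.175, adjusted p by limma 4.41e-05), made of a log2 rise of 2.60 over control in Max_KO and a fall of -1.93 in Myc_KO (adjusted p 0.000165 and 0.000116). With the description's groups, which put a library at 73.9 RPM into Myc_KO, the difference was 2.73 with an adjusted p of 0.497, and without the 2 conflicting libraries it was 4.70 (0.000568).

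Rnf17, a Tudor-domain protein of germ cell granules, was low everywhere but higher without Max. Its levels were 6.56 and 5.25 RPM in Max_KO, 0.718 and 0.748 RPM in Myc_KO, 1.12 and 1.03 RPM in the controls, and 3.3 and 4.77 RPM in double_KO. The fold between the compared groups was 7.73 (log2 2.95, SE 0.332, adjusted p by limma 0.00537), and Rnf17 exceeded control in Max_KO (log2 2.41, adjusted p 0.00109) and did not pass in Myc_KO (-0.54, 0.22). Syce2, a central element protein of the synaptonemal complex, showed another pattern. It was at 48.9 and 39.9 RPM in Max_KO, 35.9 and 36.2 RPM in the controls and 18.3 and 17.2 RPM in Myc_KO, so that Myc_KO alone lay below control (log2 -1.02, adjusted p by limma 0.000766, against 0.29 and 0.132 in Max_KO). The difference between the knock-outs was 2.49-fold (log2 1.32, SE 0.141, adjusted p by limma 0.00428). Zcwpw1, a reader of histone methylation in meiosis, was at 81.6 and 81.1 RPM in Max_KO and 49.8 and 49.9 RPM in Myc_KO. Its log2 difference was 0.71 (adjusted p by limma 0.0444), lost without either Myc_KO, Max_KO or double_KO library (0.0506 to 0.178). Syce2 overlaps Gcdh and Zcwpw1 overlaps Pilra on the genome, and the strand used in counting is not given in the sources used here.

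Of the 59 germline genes listed, 28 were in the table. The other 16 of those tested did not pass, and the median log2 difference of those tested was 0.19, against 0.006 for all genes. Smc1b, the meiotic cohesin ATPase, had 1.56 and 4.64 RPM in Max_KO, 0.718 and 0.481 RPM in Myc_KO and 0.124 and 0.0606 RPM in the controls, and did not pass (adjusted p by limma 0.118). It was above control in both knock-outs (adjusted p 0.00137 and 0.0182). Ccnb1ip1, a meiotic crossover gene that is not on the list and that overlaps Rpph1, went the other way, at 1.06 and 1.45 RPM in Max_KO and 7.25 and 3.58 RPM in Myc_KO. It was 4.05-fold lower (adjusted p by limma 0.0386, lost without either control, Myc_KO replicate 1, either Max_KO library or double_KO replicate 1 at 0.052 to 0.192). Of 17 PRC1.6 subunits, L3mbtl2, a histone-binding subunit, and Mga were called higher in Max_KO, where 2.43% of all genes were. L3mbtl2 differed by 0.50 (adjusted p by limma 0.0289, and 0.0564 to 0.16 without either control, either Myc_KO library or Max_KO replicate 1).

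Genes of other functions were also far higher in Max_KO than in Myc_KO. Ptprs, a receptor tyrosine phosphatase, was at 90.2 and 85.4 RPM in Max_KO, 13.7 and 9.73 RPM in Myc_KO, 46.9 and 47.2 RPM in the controls and 62 and 53.8 RPM in double_KO. The difference was 7.58-fold (log2 2.92, SE 0.161, adjusted p by limma 0.000379). Camk2a, a calcium-dependent kinase, was at 22.3 and 23.9 RPM in Max_KO and 3.33 and 2.83 RPM in Myc_KO, with 16.6 and 21.9 RPM in the controls (7.45-fold between the knock-outs, adjusted p by limma 0.000487). Camk2a thus did not differ from control in Max_KO at the threshold (log2 0.28, adjusted p 0.262) and fell in Myc_KO (-2.62, 5.61e-05). Tcam1, a testicular adhesion gene outside the germline list, was at 5.17 and 8.38 RPM in Max_KO and 0.979 and 1.12 RPM in Myc_KO (adjusted p by limma 0.0123, and 0.0683 without Myc_KO replicate 1). Fhad1 was at 14.2 and 11.9 RPM against 2.68 and 1.34 RPM, with controls at 16.9 and 21.7 RPM (6.78-fold, adjusted p by limma 0.0057). Rgs11, a regulator of G protein signalling, overlaps Arhgdig. It had 363 and 426.9 estimated reads in the controls, 178 and 48.9 in Max_KO and 0 and 4 in Myc_KO. Its adjusted p of 0.0186 by limma changed to 0.0565 to 0.0987 without either control, Myc_KO replicate 1 or Max_KO replicate 1. Batf3, a transcription factor of the AP-1 family, was at 23.6 and 6.2 RPM in Max_KO, 2.02 and 1.92 RPM in Myc_KO and 29.7 and 27.4 RPM in the controls (adjusted p by limma 0.0351, lost without either control, either Myc_KO library or Max_KO replicate 1 at 0.0621 to 0.144). Tnfrsf25, the death receptor DR3, was at 12.6 and 5.03 RPM in Max_KO and 1.04 and 1.39 RPM in Myc_KO. The controls held 14 and 12.7 RPM of Tnfrsf25. Its call between the knock-outs (adjusted p by limma 0.0165) was lost without either control, Myc_KO replicate 1 or Max_KO replicate 1. Cpeb3, an RNA-binding regulator of translation that overlaps March5, was lower in Max_KO, at 1.78 and 2.12 RPM against 7.25 and 8.39 RPM (adjusted p by limma 0.0228, lost without either control, either Myc_KO library or Max_KO replicate 1 at 0.0591 to 0.112).

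**Figure D3:**
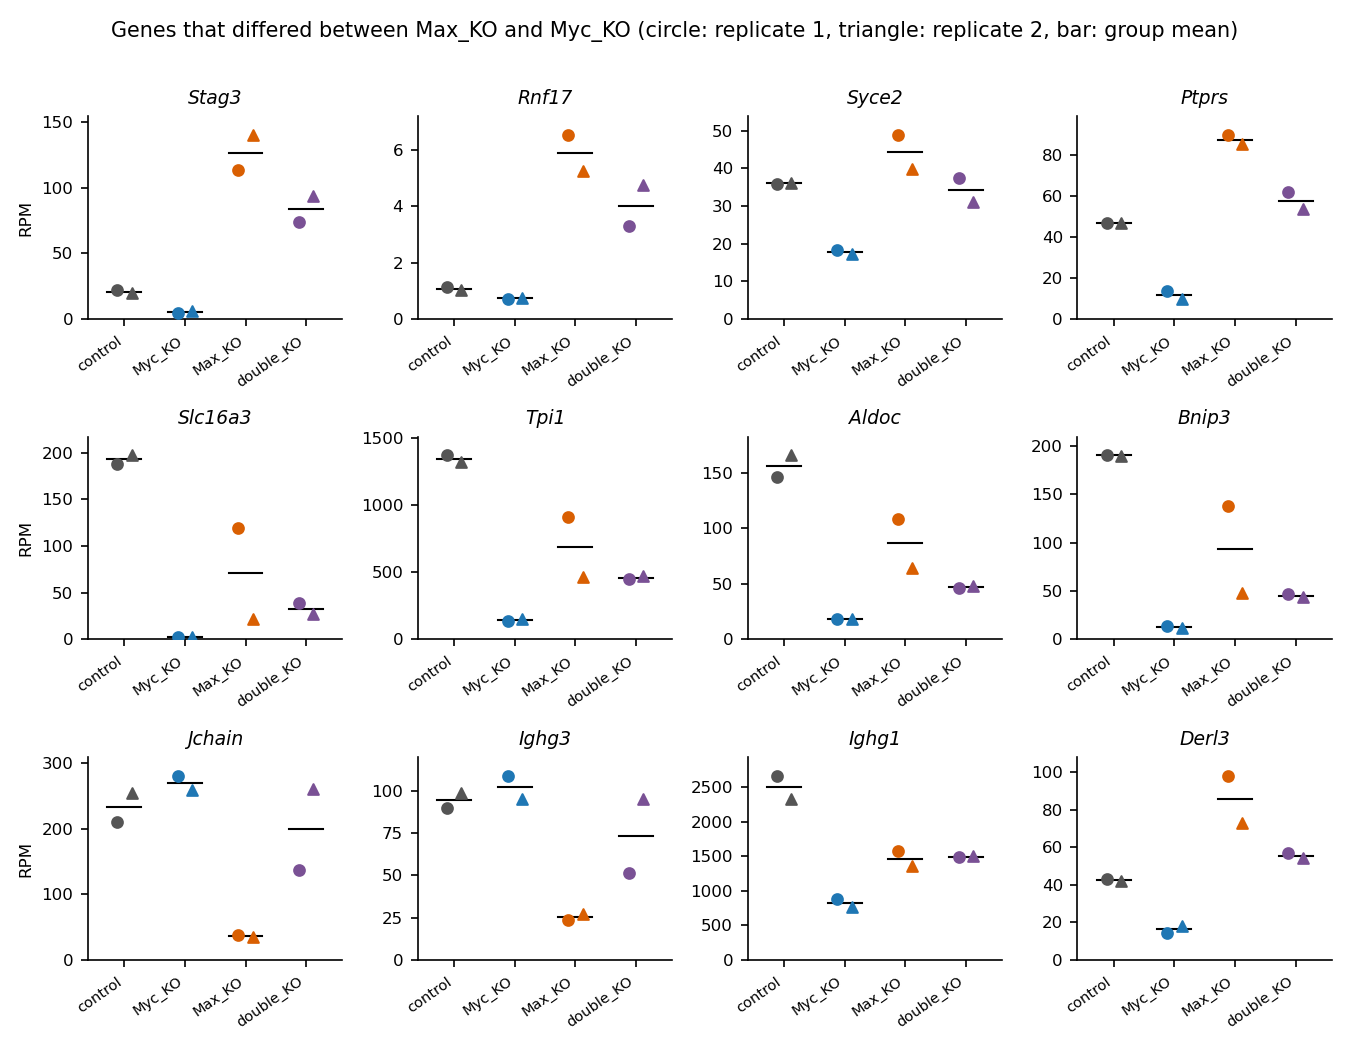
Levels of 12 genes in RPM (y axis, from 0) in each library, by genotype (x axis), with a bar at the group mean. Stag3 and Rnf17 are highest in Max_KO, the glycolytic genes are highest in the controls and lowest in Myc_KO, and Jchain and Ighg3 are lowest in Max_KO.

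Glycolysis fell after either deletion but further without Myc. Of 23 tested members of the list, 12 were higher in Max_KO than in Myc_KO, none lower and 11 did not pass. Of all genes, 2.43% were called higher and 1.68% lower. The median log2 difference of the list was 0.87. Against control, 17 members were lower in Max_KO and 21 in Myc_KO, with medians of -0.88 and -1.98, where 17.4% and 21.4% of all genes were called lower and 22.3% and 24% higher. Tpi1, triosephosphate isomerase, was at 1371 and 1317 RPM in the controls, 908 and 468 RPM in Max_KO, 449 and 471 RPM in double_KO and 138 and 152 RPM in Myc_KO. The groups did not overlap except that double_KO reached the lower Max_KO library, and Max_KO exceeded Myc_KO 4.51-fold (log2 2.17, SE 0.249, adjusted p by limma 0.0056). Aldoc, an aldolase, was at 108 and 64.6 RPM in Max_KO and 18.6 and 18.1 RPM in Myc_KO (4.55-fold, adjusted p by limma 0.0027). Pdk1, the kinase that keeps pyruvate out of the mitochondrion, was at 115 and 77.8 RPM against 39 and 38.6 RPM (2.44-fold, adjusted p by limma 0.00819).

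Lactate genes moved with them. Slc16a3, the lactate exporter MCT4, was at 188 and 197 RPM in the controls, 120 and 22.1 RPM in Max_KO, 38.6 and 27.5 RPM in double_KO and 2.87 and 2.83 RPM in Myc_KO. Ldha, lactate dehydrogenase, was at 1364 and 793 RPM in Max_KO and 365 and 362 RPM in Myc_KO, and Pkm, pyruvate kinase, at 2290 and 1426 RPM against 702 and 745 RPM. In each of these 3 genes, Max_KO replicate 1 lay well above replicate 2, and both lay above Myc_KO. The adjusted p by limma was 0.0156 for Slc16a3, 0.0123 for Ldha and 0.0129 for Pkm, and without Myc_KO replicate 1 it was 0.0756, 0.0634 and 0.0753. The log2 difference of Slc16a3 was 4.16 with all libraries, 2.94 without Max_KO replicate 1 and 5.38 without Max_KO replicate 2. Hk2, the hexokinase of the first step, was at 99.1 and 32.1 RPM in Max_KO and 25.7 and 24.7 RPM in Myc_KO and did not pass (adjusted p by limma 0.173, and 0.000371 without Max_KO replicate 2).

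The size of the glycolytic group depended on single libraries. The count of 12 became 19 without Max_KO replicate 2, 7 without Myc_KO replicate 2, 6 without either control and 3 without Myc_KO replicate 1. It was 5 without the 2 conflicting libraries, 2 without a mean-variance trend, 1 with only the 2 compared groups fitted, and 0 with the groups of the description.

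The oxygen-sensing list, which holds targets of the hypoxia factor HIF1, had 4 of 22 tested members higher in Max_KO and none lower. Its median was 0.45, and 2.43% of all genes were called higher. Bnip3, whose promoter is printed above, was at 191 and 190 RPM in the controls, 138 and 48.5 RPM in Max_KO, 46.7 and 43.8 RPM in double_KO and 13.8 and 11.7 RPM in Myc_KO. It was 6.45-fold higher in Max_KO than in Myc_KO (adjusted p by limma 0.0135, and 0.0611 without Myc_KO replicate 1). Egln1, an oxygen-sensing prolyl hydroxylase, was at 130 and 68.7 RPM against 47.9 and 39.7 RPM; its adjusted p of 0.0471 by limma was lost on leaving out any library but Max_KO replicate 2 (0.069 to 0.14). P4ha2, a collagen prolyl hydroxylase, was at 3.83 and 1.01 RPM against 0.196 and 0.0534 RPM (adjusted p by limma 0.0328, and 0.0692 to 0.176 without either control, either Myc_KO library or Max_KO replicate 1). Mxi1 is the other member. Ak4, a mitochondrial adenylate kinase, was at 32.5 and 4.08 RPM in Max_KO and 0.522 and 0.534 RPM in Myc_KO. The controls held 46.1 and 43.8 RPM of Ak4. Its call between the knock-outs (adjusted p by limma 0.0228) was lost without either control or either Myc_KO library. As with the lactate genes, the 2 Max_KO libraries were far apart in Bnip3, Ak4 and P4ha2, replicate 1 being the higher.

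Ribosomal protein genes fell after both deletions, and the difference between the deletions was small beside that fall. All 79 cytosolic ribosomal proteins were tested, with medians against control of -0.93 in Max_KO and -1.20 in Myc_KO. In each knock-out 77 were below control, where 17.4% (Max_KO) and 21.4% (Myc_KO) of all genes were called lower. Between the knock-outs 11 were called higher in Max_KO and none lower, where 2.43% and 1.68% of all genes were. The median difference was 0.23. The leading one, Rpl39, was at 609 and 617 RPM in Max_KO, 434 and 446 RPM in Myc_KO and 969 and 902 RPM in the controls (log2 difference 0.48, adjusted p by limma 0.0184, and 0.0934 without Myc_KO replicate 1 and 0.0861 without Max_KO replicate 1). The count of 11 fell to 0 without Myc_KO replicate 1, without Max_KO replicate 1 or without the 2 conflicting libraries. It was 1 without Max_KO replicate 2, 2 without either control, 6 without Myc_KO replicate 2, and 3 and 4 without double_KO replicates 1 and 2. Reads of ribosomal protein genes and their near-identical copies were divided by the authors' estimate.

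The 13 protein-coding transcripts of mitochondrial DNA were all below control in both knock-outs, with medians of -0.93 in Max_KO and -1.28 in Myc_KO. Of these, 4 complex I subunits passed between the knock-outs (mt-Nd6, mt-Nd5, mt-Nd4 and mt-Nd4l), all higher in Max_KO, where 2.43% of all genes were. The abundant mt-Nd5 was at 1714 and 1626 RPM in Max_KO, 1013 and 981 RPM in Myc_KO and 2966 and 2496 RPM in the controls (adjusted p by limma 0.0223, and 0.0635 to 0.11 without either Myc_KO library or Max_KO replicate 1). The gene mt-Nd5 overlaps mt-Nd6 on the other strand, and mt-Nd4 overlaps mt-Nd4l, so the 4 calls fall in overlapping pairs and are not separate results. The other 3 calls were also lost without either Myc_KO library or Max_KO replicate 1, and that of mt-Nd4l without any other library as well (0.0507 to 0.234). None of the 27 nuclear genes of respiration passed (median 0.01), where 4.12% of all genes did, so a list of this size can lack calls at that share. Cholesterol synthesis had 5 of 24 members higher in Max_KO, Fdps, Mvd and Lss among them, and none lower, with a median of 0.26. Fdps, farnesyl diphosphate synthase, was at 160 and 136 RPM in Max_KO, 97.6 and 95.3 RPM in Myc_KO and 298 and 292 RPM in the controls (adjusted p by limma 0.0165, and 0.0753 and 0.0721 without Myc_KO replicate 1 and Max_KO replicate 1). The calls of Mvd and Lss were lost without either control, either Myc_KO library or Max_KO replicate 1, and that of Lss also without either double_KO library (0.0528 to 0.19).

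Ribosome assembly and nucleotide synthesis each had 3 called members, of 34 and 26 tested, all higher in Max_KO. Rrp12, a ribosome export factor, was at 114 and 113 RPM in Max_KO, 49.5 and 59.7 RPM in Myc_KO, 60 and 55.5 RPM in the controls and 106 and 110 RPM in double_KO (2.08-fold, adjusted p by limma 0.00335). Like Mnt, Rrp12 lay above control wherever Max was deleted and near control in Myc_KO (log2 -0.09, adjusted p 0.533). Shmt1, a one-carbon enzyme, was at 79.5 and 72.5 RPM in Max_KO, 41.4 and 44.2 RPM in Myc_KO and 90.2 and 83.7 RPM in the controls (1.78-fold, adjusted p by limma 0.0077, and 0.0501 without Myc_KO replicate 1). No member passed among 20 translation factors, 28 mitotic genes or 23 CDK inhibitors and p53 targets. With 4.12% of all genes called, lists of these sizes can lack calls at that share. Their median log2 differences were 0.11, 0.14 and -0.13.

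Among 19 genes of class switching, 2 DNA repair enzymes were higher in Max_KO than in Myc_KO, and 17 genes did not pass (median 0.14). For comparison, 2.43% of all genes were called higher. Ung, which removes the uracil made by AID, was at 74.4 and 72.6 RPM in Max_KO, 31.3 and 31.4 RPM in Myc_KO, 39.4 and 36.8 RPM in the controls and 75.2 and 60.3 RPM in double_KO (2.34-fold, adjusted p by limma 0.00283). Apex1, the endonuclease that acts after Ung, was at 195 and 171 RPM in Max_KO, 75.2 and 81.5 RPM in Myc_KO and 144 and 130 RPM in the controls (2.33-fold, adjusted p by limma 0.00196). Both were above control in Max_KO (log2 0.95 and 0.41, adjusted p 0.000729 and 0.0171). Apex1 overlaps Pip4p1.

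Antibody transcripts went the other way. Jchain, the chain that joins IgM and IgA multimers (chromosome 5, 88519809 to 88527891), was at 37.3 and 35.4 RPM in Max_KO, 281 and 260 RPM in Myc_KO, 210 and 255 RPM in the controls and 137 and 261 RPM in double_KO. The 2 Max_KO libraries were the lowest of the 8, 7.43-fold below Myc_KO (log2 -2.89, SE 0.25, adjusted p by limma 0.00196, and 0.0249 with the description's groups), and Myc_KO did not pass against control (0.22, adjusted p 0.495). Ighg3, the IgG3 heavy chain constant region, repeated this pattern at 23.6 and 27.3 RPM in Max_KO, 109 and 95.4 RPM in Myc_KO and 90.1 and 98.8 RPM in the controls (4.01-fold lower, adjusted p by limma 0.00683). In double_KO, Ighg3 was at 51.5 and 95 RPM, above both Max_KO libraries. Ighg1, the IgG1 constant region that IL-4 favours, was the opposite, with 1484 and 1504 RPM in double_KO. It was at 1572 and 1363 RPM in Max_KO, 880 and 761 RPM in Myc_KO and 2673 and 2333 RPM in the controls, and was 1.79-fold higher in Max_KO than in Myc_KO (adjusted p by limma 0.0112, and 0.0575 without Max_KO replicate 1).

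Of 13 constant-region genes, Jchain included, 1 was higher and 5 lower in Max_KO, where 2.43% and 1.68% of all genes were. The median was -0.76. The light chain constant regions Igkc, Iglc1 and Iglc3 made up the rest of the 5. Igkc was at 2478 and 2240 RPM in Max_KO, 3756 and 3336 RPM in Myc_KO and 6160 and 6026 RPM in the controls. In double_KO, Igkc was at 2870 and 3544 RPM, Iglc1 at 162 and 253 RPM and Iglc3 at 105 and 108 RPM. Each of these levels lay above both Max_KO libraries. The calls of Igkc, Iglc1 and Iglc3 (adjusted p by limma 0.0421, 0.0386 and 0.0123) were all lost without Myc_KO replicate 1 (0.192, 0.178 and 0.0753) and without Max_KO replicate 1 (0.122, 0.186 and 0.0568). Those of Igkc and Iglc1 were also lost without either control or Myc_KO replicate 2, and that of Igkc without Max_KO replicate 2 (0.0618 to 0.124 over these). Near-identical immunoglobulin genes share reads that were divided by an estimate.

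Regulators and products of plasma cells had 1 of 17 members higher and 4 lower in Max_KO, with a median of -0.41. Of all genes, 2.43% were called higher and 1.68% lower. Jchain is 1 of the 4 and was also counted among the constant-region genes, so the 2 counts are not separate. Sdc1, the plasma cell surface proteoglycan, was at 2.94 and 3.02 RPM in Max_KO, 8.23 and 14.9 RPM in Myc_KO and 5.98 and 5.94 RPM in the controls (adjusted p by limma 0.0283, lost without either control, either Max_KO library or Myc_KO replicate 2 at 0.0583 to 0.123). The secretory chaperones Creld2 and Fkbp11 were also called lower, by -0.64 and -1.29, and each lost its call without either control, either Myc_KO library or either Max_KO library (adjusted p by limma 0.0621 to 0.146). In double_KO, Sdc1 was at 8.83 and 16.5 RPM, Creld2 at 98.4 and 123 RPM and Fkbp11 at 5.87 and 9.82 RPM. Each of these levels lay above both Max_KO libraries, although double_KO also lacks Max by its title. Derl3, which draws misfolded proteins out of the endoplasmic reticulum, was higher in Max_KO instead. It was at 98.1 and 72.8 RPM in Max_KO, 14.4 and 18 RPM in Myc_KO, 43 and 41.7 RPM in the controls and 56.7 and 54.1 RPM in double_KO (5.24-fold, adjusted p by limma 0.000647). Of 19 genes of the unfolded protein response, Dnajb9 alone passed, higher in Max_KO by 0.65 (adjusted p by limma 0.0465, lost on leaving out any library at 0.0603 to 0.155).

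The lowest fitted differences, those of Trim12a and Trim30d, came from neighbouring genes of chromosome 7. Trim proteins of this family are restriction factors and regulators of innate signalling, many of them induced by interferon. Trim12a (104299894 to 104315466) was at 0.441 and 0.834 RPM in Max_KO, 91.4 and 50.9 RPM in Myc_KO, 50.6 and 24.9 RPM in the controls and 82.8 and 41 RPM in double_KO. Trim30d (104470014 to 104507849) was at 0.537 and 0.732 RPM in Max_KO, 90.5 and 46.4 RPM in Myc_KO, 32.1 and 20.6 RPM in the controls and 77.6 and 30.8 RPM in double_KO. Both genes were near 0 in the Max_KO libraries, with 7.9 to 14.9 estimated reads each, and present in all 6 others, including double_KO, which also lacks Max by its title. The log2 differences were -6.75 (SE 0.481) and -6.63 (SE 0.466), each with an adjusted p by limma of 0.00077.

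Trim5 (104263386 to 104288094) was at 0.764 and 1.39 RPM in Max_KO and 41.1 and 23.3 RPM in Myc_KO (29.2-fold lower, adjusted p by limma 0.0026). Gvin1, a large interferon-inducible GTPase about 1857 kb away, was at 67.6 and 75.4 RPM in Max_KO, 1276 and 476 RPM in Myc_KO, 251 and 176 RPM in the controls and 863 and 327 RPM in double_KO. Its difference was 10.9-fold (adjusted p by limma 0.0156, and 0.0625 and 0.067 without Myc_KO replicate 1 and Max_KO replicate 1). Trim34a and Trim30b were also called lower, at -2.04 and -2.70 (adjusted p by limma 0.0223 and 0.0167). Both calls were lost without Myc_KO replicate 1 or Max_KO replicate 1, that of Trim34a also without either control and that of Trim30b without Myc_KO replicate 2 (0.0537 to 0.117 over these).

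Members of the same cluster differed in this. Trim6 was at 0.0556 and 0.168 RPM in Max_KO and 0.523 and 1.87 RPM in Myc_KO. Its log2 difference of -3.01 did not pass in the main fit (adjusted p by limma 0.0592, and 0.0125 with the title numbers as a block). Against control, Trim6 was lower in Max_KO (log2 -2.91, adjusted p by limma 0.0137). Gm15133, a gene model that overlaps Trim12a, was listed at 0 RPM in both Max_KO libraries and at 1.04 and 0.909 RPM in Myc_KO (adjusted p by limma 0.023, lost without either Myc_KO library or Max_KO replicate 1 at 0.0676 to 0.124). Trim12c, 38.9 kb from Trim12a, was at 104 and 121 RPM in Max_KO and 122 and 117 RPM in Myc_KO, and Trim30a was at 176 and 190 RPM against 218 and 215 RPM (adjusted p by limma 0.775 and 0.162). Of 13 tested genes of the list, 6 were lower in Max_KO, 7 did not pass and none was higher. The count was 3 without Myc_KO replicate 1 or Max_KO replicate 1. Within 10 Mb of Trim12a, 13 of 126 tested genes (10.3%) were called, where 4.12% of all genes were. The 7 lower calls were Gm15133 and the 6 lower members of the list, and the other 6 were higher in Max_KO. Because the window was centred on a gene chosen for its low value in these data, its share is not a test of the region. Reads of these similar genes were divided by an estimate.

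**Figure D4:**
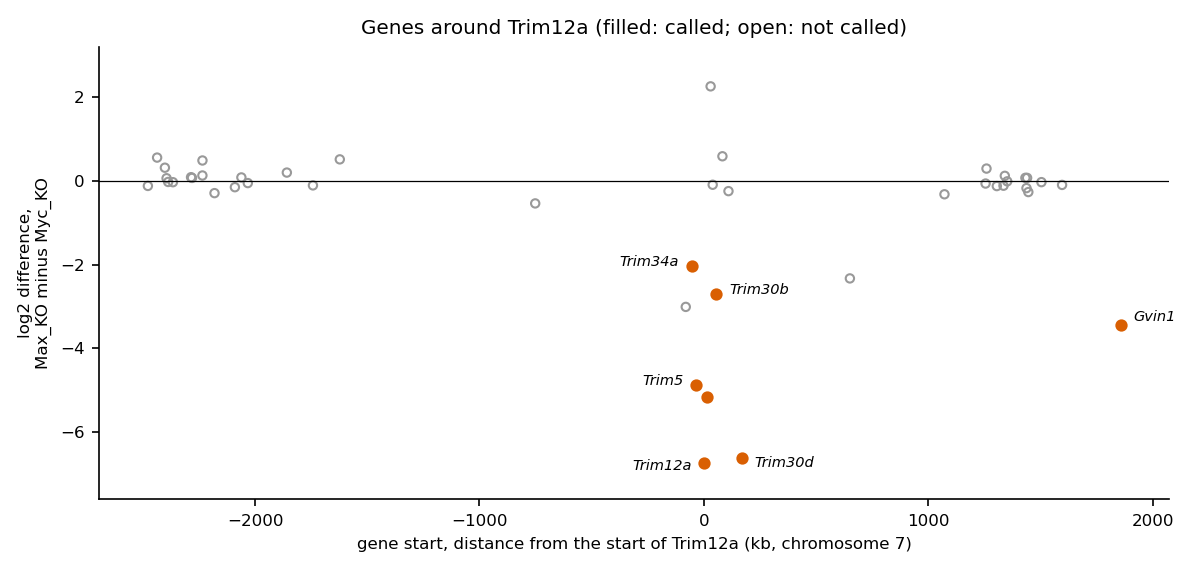
Log2 difference of Max_KO minus Myc_KO (y axis) for tested genes around Trim12a on chromosome 7, by the distance of the gene's start from that of Trim12a in kb (x axis). Filled points are called and open points are not: Trim12a at -6.75 and Trim30d at -6.63 are lowest, the filled point without a name is Gm15133, and open points of the cluster range from Trim6 at -3.01 through Trim12c at -0.09 to Trim34b at 2.26.

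Signalling and surface genes of B cells moved less and in mixed directions. Icosl, the ligand of the T cell receptor Icos, was at 9.06 and 12.3 RPM in Max_KO, 55 and 47.2 RPM in Myc_KO, 2.74 and 4.61 RPM in the controls and 25.9 and 19.7 RPM in double_KO (4.82-fold lower in Max_KO than in Myc_KO, adjusted p by limma 0.00681). Both knock-outs exceeded control, Myc_KO by more. Nfkbiz, a nuclear regulator of NF-kB target genes, did the same at 52.9 and 95 RPM in Max_KO, 263 and 211 RPM in Myc_KO and 28 and 32.7 RPM in the controls (adjusted p by limma 0.0129, and 0.076 without Myc_KO replicate 1). Cd72, an inhibitory co-receptor, was at 152 and 176 RPM in Max_KO, 352 and 304 RPM in Myc_KO and 81.7 and 96.3 RPM in the controls (adjusted p by limma 0.0162, and 0.0855 and 0.0812 without Myc_KO replicate 1 and Max_KO replicate 1). Among 24 activation genes, Tnfrsf8 (CD30) and Cd86 were higher in Max_KO and Icosl was lower, where 2.43% and 1.68% of all genes were. Tnfrsf8 was at 209 and 122 RPM against 46.3 and 61.5 RPM (adjusted p by limma 0.0184, lost without either control, Myc_KO replicate 1 or Max_KO replicate 1 at 0.0514 to 0.098). Cd86 differed by 0.56 (adjusted p by limma 0.0279, and 0.0541 to 0.139 without either control, Myc_KO or Max_KO library).

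Counts for the remaining lists were small, where 4.12% of all genes were called, 2.43% higher and 1.68% lower. A single call, or none, in a list of these sizes is near that share and is not a result about the list. B cell receptor signalling had 3 of 22 members lower (Cd72, Prkcb and Cr2) and none higher, and NF-kB and Toll-like receptor signalling had 3 of 22 lower (Nfkbiz, Cd180 and Irak2) and Nfkb1 higher. The calls of Prkcb, Cr2, Cd180, Irak2 and Nfkb1 were each lost without either control, either Myc_KO library or Max_KO replicate 1. Those of Cr2 and Irak2 were also lost without Max_KO replicate 2, and that of Nfkb1 without either double_KO library (adjusted p by limma 0.0534 to 0.189 over these). None of 19 B cell identity genes passed (median -0.05). Against control, 12 of them were called higher in Max_KO and 14 in Myc_KO, where 22.3% and 24% of all genes were. Of 15 BCL2 family genes, Bmf, a pro-apoptotic BH3 protein, was lower in Max_KO, at 2.39 and 3.57 RPM against 12.1 and 9.3 RPM (adjusted p by limma 0.0165, and 0.0926 and 0.0721 without Myc_KO replicate 1 and Max_KO replicate 1). Single calls were also made for Mcm3 (of 29 DNA replication genes) and Ccne2 (of 18 G1 and E2F genes), higher in Max_KO by 0.32 and 0.56. Got1 (of 17 amino acid genes), Sat1 (of 10 polyamine genes), Btg1 (of 15 quiescence genes) and S1pr3 (of 14 migration receptors) were lower by -0.43, -0.45, -0.56 and -1.36. Each of these 6 had an adjusted p by limma of 0.0256 to 0.0469 and lost its call without Myc_KO replicate 1, Myc_KO replicate 2 or Max_KO replicate 1. All but S1pr3 also lost it without either control or Max_KO replicate 2, and Mcm3, Got1 and Sat1 without either double_KO library (0.0521 to 0.237 over these). None of 10 metallothionein and zinc transport genes passed.

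Interferon-stimulated genes were above control in both knock-outs, 28 of 36 in Max_KO and 34 in Myc_KO, with medians of 1.2 and 1.46, where 22.3% and 24% of all genes were called higher. Between the knock-outs only Ifi27l2a, a small mitochondrial membrane protein, passed, at 115 and 127 RPM in Max_KO and 162 and 205 RPM in Myc_KO (adjusted p by limma 0.0352, lost without either control, Myc_KO replicate 2 or either Max_KO library at 0.0509 to 0.176). That 1 call of 36 stands beside 1.68% of all genes called lower. The median difference was -0.27, against 0.006 for all genes, and 31 of 36 estimates were negative. All estimates come from the same 4 libraries, so this count does not treat independent observations and no difference of the list was tested.

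Markers of other cells that a B cell sort could carry also differed between the groups. Of 34 T, NK and myeloid markers, 24 were in the table and 19 were tested. Of these, 13 were above control in Max_KO and 18 in Myc_KO (22.3% and 24% of all genes), and the median difference between the knock-outs was -1.07. The summed level of 8 T cell markers (without Lck and Thy1, which made up most of the sum in the controls) was 53.8 and 32.2 RPM in Myc_KO, 19.6 and 28.6 RPM in Max_KO and 4.53 and 5.02 RPM in the controls. The NK cell sum was 212 and 135 RPM, 43.4 and 93.6 RPM, and 8.84 and 6.49 RPM in the same order, and the myeloid sum was 29.9 and 19.7 RPM, 13.8 and 11.7 RPM, and 2.44 and 3.39 RPM. In these 3 sums both Myc_KO libraries lay above both Max_KO libraries, while 46.2% of all genes showed non-overlap in 1 direction or the other. With Lck and Thy1 included the T cell order turned, to 242 and 197 RPM in Myc_KO, 309 and 253 RPM in Max_KO and 362 and 318 RPM in the controls. Without Gzma and Gzmb the NK cell sum was 20.2 and 16.5 RPM in Myc_KO, 5.44 and 11.1 RPM in Max_KO and 4.05 and 4.61 RPM in the controls. No marker in the table was at 0 in every library. Klrb1c, Klre1, Lyz1, Mpo, Elane, S100a8 and S100a9 were not analysed here. Gzmb, the granzyme that leads the NK cell sum, was at 127 and 79.7 RPM in Myc_KO and 25.2 and 53.8 RPM in Max_KO and did not pass (adjusted p by limma 0.0976, and 0.0321 without Max_KO replicate 2). Thy1 was the single member called, and it was higher in Max_KO, at 228 and 153 RPM against 75.2 and 71.1 RPM, with 323 and 275 RPM in the controls (adjusted p by limma 0.0123, and 0.0589 without Myc_KO replicate 1). Some interferon, signalling and surface genes were likewise lower in Max_KO, whereas Tnfrsf8, Cd86 and Nfkb1 were higher. The part of other cells in those results was not tested.

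**Figure D5:**
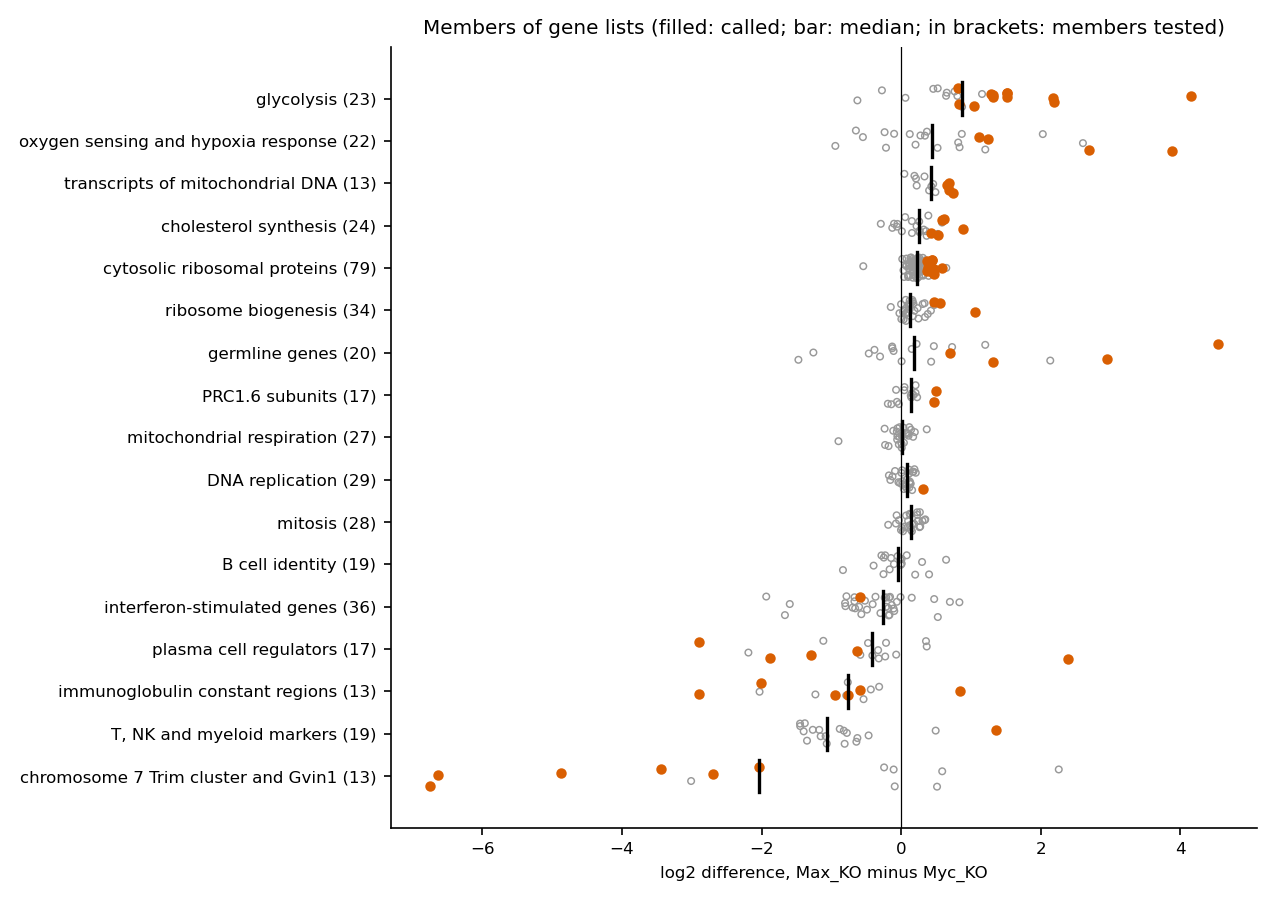
Log2 difference of Max_KO minus Myc_KO (x axis) for every tested member of 17 gene lists (y axis, members tested in brackets), with a bar at the median. Filled points are called: glycolysis has 12 of 23 on the right, the Trim list 6 of 13 on the left, and respiration and mitosis have none. Of all genes tested, 4.12% were called.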

How the data were processed

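The deposited table holds log2 values for 15681 genes in 8 libraries, made by the authors and used as deposited. Judged by their spacing, they are log2 RPM values, with 0.5 added to the estimated reads and with an effective library size in place of the total. The submitters' processing notes list CASAVA 1.8, cutadapt, RSEM 1.2.3 and the build GRCm38. Parameters, annotation and strand setting: not given in the sources used here. RPM values were recovered from the log2 values. The effective size makes each change relative to the bulk of a library's genes, not to the cell.

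Genes at a log2 value of 0 or more in at least 2 libraries entered a single limma fit (version 3.58.1, R 4.3.3) with a mean for each of the 4 groups. eBayes used a mean-variance trend, and 4 residual degrees of freedom remained. Tests were two-sided, with Benjamini-Hochberg adjustment over all 12489 genes and a threshold of 0.05. The scripts were tested on simulated data. Estimated reads are fractional, so no count model was used. Fold changes of genes near 0 reads depend on the added 0.5.

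Symbols and coordinates came from GENCODE annotation of GRCm38, and 15622 genes matched. The 35 lists hold 809 entries, of which 734 were tested. The comparison, its members and the lists were chosen with earlier results of these data known. Genes named in the text were those of the Myc and Max network, the 12 highest and 12 lowest called genes that reach a mean of 5 RPM in either group without overlap (leaving out predicted genes and immunoglobulin segments), and from every list the called members of lowest adjusted p (3 at most), or the member with the largest difference where none was called. Smc1b, Hk2, Gzmb, Trim6, Trim12c, Trim30a, Trim34b, Gm15133 and the remaining called members of short lists were named after their values were seen. Results of some genes are not reported here. Python 3.11.15 with pandas 2.3.3, numpy 2.4.6 and matplotlib 3.10.9 did the rest. Alternatives covered the grouping, the samples fitted, scaling, the filter, a pseudocount of 1, the variance model and each library left out in turn.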

Additional observations from a re-analysis of the deposited data

How the results depend on the processing

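The count of genes that differed between Max_KO and Myc_KO depended on the grouping and on single libraries. From 514, it became 13 with the groups of the description, 56 with only the 2 compared groups fitted, 136 without a mean-variance trend, 235 with a 2-fold minimum added, and 97 to 527 with each library left out in turn. The count of 97 was reached without Myc_KO replicate 1. Scaling to the same total moved the share of higher calls from 59.1% to 51.2%. With control as the reference, the counts ranged from 2676 to 5027 for Max_KO (4954) and from 3397 to 5612 for Myc_KO (5671) as libraries were left out, each lowest without control replicate 1; a 2-fold minimum gave 1520 and 2072. Omitting control replicate 2 gave 3077 for Max_KO, and omitting its own replicate 2 gave 3189. The cause of these shifts was not tested, beyond the fewer samples that each omission leaves.

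The titles carry numbers in the 30s and 40s. With that number series as a replicate block, 1302 genes differed between Max_KO and Myc_KO, 689 higher and 613 lower, and all 90 called genes checked stayed called. Mxd1, Mxd4 and Trim6 also passed then (adjusted p by limma 0.0388, 0.0233 and 0.0125). Deviations from the group mean of same-series libraries correlated at 0.363 between Max_KO and Myc_KO, 0.37 between Max_KO and double_KO and 0.315 between Myc_KO and double_KO over 12489 genes, but 2 libraries a group cannot show that the numbers pair samples, and the labels do not call them batches. With 2 libraries a group, the median SE was 0.16 on the log2 scale, and a call needed a difference well above the SE. In the main fit, Mxd4 did not pass at a difference of 0.58 with an SE of 0.137 (adjusted p by limma 0.0579). Genes that were not called can therefore still differ.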

Other observations

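Variable segments of the antibody genes were lower in Max_KO than in Myc_KO wherever they were called. Of 89 heavy chain segments tested, 10 were lower, as were 17 of 88 kappa segments and all 3 lambda segments, and none was higher, where 4.12% of all genes were called. Median log2 differences were -0.61, -0.65 and -1.75. Kappa segments took 0.141% and 0.132% of reads in Max_KO, 0.257% and 0.21% in Myc_KO and 0.232% and 0.245% in the controls, so both Max_KO libraries were below all of these. Heavy chain segments took 0.0995% and 0.101% in Max_KO, 0.17% and 0.161% in Myc_KO and 0.0926% and 0.102% in the controls, where Max_KO lay within the range of the controls. Segments share reads that were divided by an estimate.

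The neighbourhoods of the targeted genes are given beside the 4.12% of all genes called. Within 10 Mb of Max, 2 of 142 tested genes (1.41%) passed between Max_KO and Myc_KO, Max among them. Within 10 Mb of Myc, 3 of 41 (7.32%) passed, Myc among them.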
